A study of Mus musculus with 6 samples.

Results

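The 9 genes described here encode bromodomain proteins, which read acetylated histones: Brd1, Brd2, Brd3, Brd7, Brd9, Atad2b, Baz2a, Baz2b and Bptf. They were taken by name from the 31053 genes of the count matrices, and all 9 were found. Earlier results of these data were known when they were chosen. Their RNA was followed across the cell types of the mouse hippocampus, first in mice given vehicle and then in mice given CI-994, which inhibits class I histone deacetylases (HDACs) and is abbreviated HDACi. The series holds 6 libraries of single-nucleus RNA sequencing, each from the pooled hippocampi of 5 male C57BL/6J mice aged 12 weeks. The Veh-CFC group (2 libraries) received vehicle (DMSO, Kolliphor and saline) by intraperitoneal injection 1 h before contextual fear conditioning (CFC), a new chamber with 2 foot shocks of 0.2 mA, and the HDACi-CFC group (2 libraries) received CI-994 at 30 mg/kg in the same vehicle before the same conditioning. In the Context exposure the chamber was given with no shock, with 1 HDACi-Context library and 1 library labelled Veh-Context. All mice were killed 1 h after the exposure. For the last of these the labels conflict, with vehicle in the title and treatment fields and HDACi in the description. It was placed with vehicle by its title and is called the library labelled Veh-Context throughout. Nothing states that the libraries of a group differed in more than the mice pooled, so no p-value measures the spread between single mice. In the drug fits p-values rest on the spread between libraries of pooled mice, estimated with information shared over genes. In the vehicle and type comparisons the library is a block. There they rest on the spread left between types once library differences are removed.

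Acetyl groups on histone tails are added by acetyltransferases, removed by deacetylases, and bound by bromodomains, small folds that hold an acetylated lysine in a pocket. Inhibitors of class I deacetylases raise histone acetylation and so raise the number of sites that bromodomains can bind. Brd2 and Brd3 belong to the BET family, which joins acetylated chromatin to transcription elongation. Brd1, also called Brpf2, is a scaffold of the HBO1 and MOZ/MORF acetyltransferase complexes. Brd7 and Brd9 are subunits of SWI/SNF remodelers, Brd7 of the PBAF form and Brd9 of the non-canonical BAF form. Bptf is the large subunit of the NURF remodeler, Baz2a (also called TIP5) is a subunit of the nucleolar remodeling complex that silences ribosomal DNA, and Baz2b is a relative of Baz2a. All 3 work with ATPases of the ISWI family. Atad2b is an AAA ATPase with a bromodomain.

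A minimum of 500 genes, a maximum of 5% mitochondrial counts and removal of called doublets left 26839 of 30323 barcodes. Library totals ran from 24508202 to 45570814 unique molecular identifiers (UMIs), and the kept nuclei of a library had a median of 5368 to 6808 UMIs. There were 68 barcodes present in more than 1 library. The tissue label names the dentate gyrus (DG), but marker genes placed only 29.6% of kept nuclei as DG granule-like, and CA1-like, CA3-like and other types were well represented. Marker gates placed 21249 nuclei (79.2% of those kept) into 10 types, from 231 Cajal-Retzius-like nuclei (36 to 42 a library) and 567 oligodendrocyte precursor-like (OPC-like) nuclei to 7945 DG granule-like nuclei. The gates hold several clusters: 59.4% of the CA3-like nuclei fell in 1 cluster, 28.4% in another and 9.66% in the next. The 9 genes gave 2076 UMIs (Brd2) to 38893 UMIs (Baz2b) over the gated nuclei. The Context libraries carry another version of the counting software in their headers than the CFC libraries, and the protocol speaks of 4 libraries, so exposure and separate processing cannot be told apart.

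In vehicle libraries the genes differed in how evenly the types carried them. Brd9 and Baz2b ranged most, with 1 type far above the rest: CA1-like nuclei for Brd9 and oligodendrocyte-like nuclei for Baz2b. Brd3 ranged least and no type differed for it. Each type was tested against the mean of the other types with edgeR's quasi-likelihood test, with the library as a block and Benjamini-Hochberg adjustment over all genes, and a difference was called at an adjusted p below 0.05. Of 90 pairs of gene and type, 19 were called higher and 15 lower. Such calls were common among all genes. In DG granule-like nuclei 4 of the 9 were called, where 52.5% of all genes were. The counts and backgrounds were 5 and 51.4% in CA1-like, 4 and 51.3% in CA3-like, 3 and 35.4% in subicular or cortical excitatory-like, and 3 and 41% in interneuron-like nuclei. In glia and the remaining neurons they were 5 and 48.6% in oligodendrocyte-like, 1 and 23.1% in OPC-like, 3 and 34.5% in astrocyte-like, 5 and 47.9% in microglia-like, and 1 and 13.8% in Cajal-Retzius-like nuclei. So the number called was near the background in most types, and the sizes below are the result. Levels in this comparison are CPM, UMIs brought to a common depth, here scaled over all 30 sums of a type in a vehicle library, and they are given in the order Veh-CFC 1, Veh-CFC 2 and the library labelled Veh-Context.

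**Figure D1:**
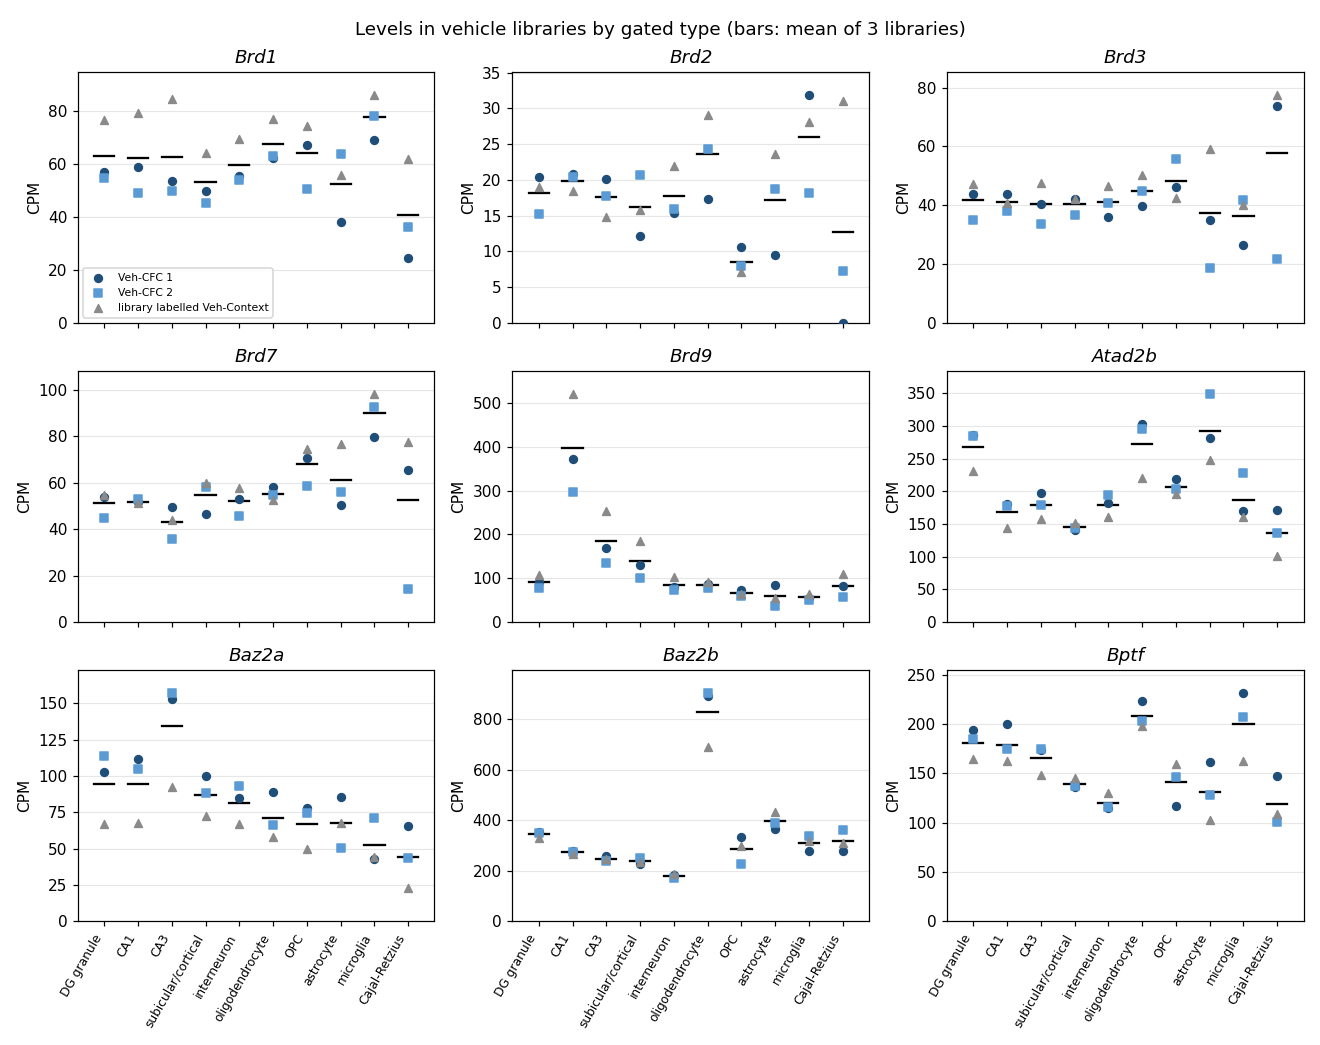
Level of each gene (CPM, linear axis) in the 10 gated types of the 3 vehicle libraries, with 1 point per library and a bar at the mean. Brd9 stands highest in CA1-like nuclei in all 3 libraries and Baz2b in oligodendrocyte-like nuclei, while the points of Brd3 overlap across types.

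Brd9 (ENSMUSG00000057649, chromosome 13, 73937811 to 73960895, plus strand, GRCm38) was at 372.4, 297.4 and 520.5 CPM in CA1-like nuclei, 396.7 ± 113.6 CPM (SD, n = 3). Every one of these values lies above every value of the other 9 types. CA1-like nuclei were higher than the mean of the others by 2.16 ± 0.07 on the log2 scale (SE, adjusted p = 3.02e-35). CA3-like nuclei came next with 168.7, 135.1 and 252.3 CPM, and subicular or cortical excitatory-like nuclei after them with 129.8, 100.4 and 185 CPM. The steps between neighbours in the order were each called: CA1-like over CA3-like by 1.1 ± 0.09 (26.8% of all genes were called in that contrast), CA3-like over subicular or cortical excitatory-like by 0.41 ± 0.11 (29.5%), and the latter over DG granule-like nuclei by 0.59 ± 0.11 (39.9%). DG granule-like nuclei, the other large excitatory population, were at 90.8, 76.6 and 107.7 CPM, near the oligodendrocyte-like and interneuron-like nuclei. The lowest mean was in microglia-like nuclei at 57 CPM. In each of the 4 types of the highest means, the library labelled Veh-Context was the highest of the 3. An antisense gene, Gm41002, overlaps Brd9, and counting by strand is not stated in the sources used here. Its own counts in CA1-like nuclei were 14 and 17 UMIs in the Veh-CFC libraries and 65 in the library labelled Veh-Context, against 1355, 1574 and 2510 UMIs for Brd9.

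Baz2b (ENSMUSG00000026987, chromosome 2, 59899363 to 60209839, minus strand) was at 892.2, 902.8 and 691.3 CPM in oligodendrocyte-like nuclei, 828.8 ± 119.2 CPM (SD, n = 3). The next type, astrocyte-like nuclei, had 367.2, 389.3 and 434 CPM, so the ranges did not overlap. The step between them was 1.06 ± 0.11 on the log2 scale (adjusted p = 3.63e-12; 34.4% of all genes called). OPC-like nuclei, of the lineage that gives rise to oligodendrocytes, had 332.8, 228.4 and 298.4 CPM and did not differ from the mean of the other types (log2 -0.17 ± 0.11). Interneuron-like nuclei were lowest at 180.8 ± 8.7 CPM, below subicular or cortical excitatory-like nuclei by 0.40 ± 0.11 (26.3% of all genes called). The place of other types depends on the scaling. DG granule-like nuclei (345.4 CPM) were called higher than the mean of the other types by 0.15, which turned to -0.14 by library totals, and microglia-like nuclei (310.6 CPM) were not called, but were higher by 0.41 by library totals (adjusted p = 0.000173).

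Baz2a (ENSMUSG00000040054, chromosome 10, 128091577 to 128129303, plus strand) was highest in CA3-like nuclei, at 153, 157.1 and 92.3 CPM, which is 0.90 ± 0.09 above the mean of the other types (adjusted p = 7.56e-14). CA3-like nuclei exceeded DG granule-like nuclei by 0.50 ± 0.09 (43.7% of all genes called), although the lowest CA3-like value lies among the DG granule-like values of 102.8, 114 and 67.2 CPM. DG granule-like and CA1-like nuclei were also called higher, by 0.35 and 0.34 (0.05 each by library totals, not called), and microglia-like nuclei lower, by 0.54. The microglial call was lost by library totals (log2 -0.13), by DESeq2 (log2 -0.35) and without the Veh-CFC 1 library (log2 -0.27), and the DG granule call without the Veh-CFC 2 library (log2 0.24).

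Atad2b (ENSMUSG00000052812, chromosome 12, 4917353 to 5047394, plus strand) was called higher in astrocyte-like (293 CPM), oligodendrocyte-like (273.3 CPM) and DG granule-like nuclei (267.3 CPM). The steps between these 3 were not called, and the first called step in the order was DG granule-like over OPC-like nuclei, 0.38 ± 0.13 (adjusted p = 0.0133; 38.1% of all genes called). Its lowest means were in subicular or cortical excitatory-like (145.2 CPM) and Cajal-Retzius-like nuclei (136.7 CPM). Brd7 (ENSMUSG00000031660, chromosome 8, 88331039 to 88362194, minus strand) was highest in microglia-like nuclei, at 79.8, 92.6 and 98.3 CPM, or 0.76 ± 0.15 above the mean of the others (adjusted p = 3.38e-05). All 3 values exceed those of OPC-like nuclei, the next type, but that step of 0.44 ± 0.23 was not called (adjusted p = 0.14; 36.2% of all genes called). CA3-like nuclei were lowest for Brd7 at 43.2 CPM.

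Bptf (ENSMUSG00000040481, chromosome 11, 107033081 to 107132127, minus strand) varied little, from 119.1 to 208.5 CPM in mean level, and was called higher in oligodendrocyte-like (0.47), microglia-like (0.40), DG granule-like (0.24) and CA1-like nuclei (0.22). The DG granule and CA1 differences turned to -0.05 and -0.08 by library totals, and they were lost without Veh-CFC 2 (0.22 each) and, for CA1, without Veh-CFC 1 (0.18). It was lower in interneuron-like nuclei by 0.40. Brd1 (ENSMUSG00000022387, chromosome 15, 88687034 to 88734233, minus strand) was called only in microglia-like nuclei, higher by 0.44 ± 0.15, and this was lost without the Veh-CFC 1 library (0.47, adjusted p = 0.0506) or the Veh-CFC 2 library (0.38, adjusted p = 0.14). Brd2 (ENSMUSG00000024335, chromosome 17, 34112023 to 34122634, minus strand) was called higher only in oligodendrocyte-like nuclei, by 0.54 ± 0.22, a call lost without the library labelled Veh-Context (0.58, adjusted p = 0.103) and without Veh-CFC 2 (0.45, adjusted p = 0.208). Brd3 (ENSMUSG00000026918, chromosome 2, 27445579 to 27507662, minus strand) was called in no type by edgeR (smallest adjusted p = 0.452), with means from 36.2 to 57.7 CPM.

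As a description, the genes whose means ran most like those of the 3 widest-ranging members over the 10 types were sought among 8265 genes. For Brd9 they were Polr2h (Pearson r = 0.95), which encodes a subunit shared by the RNA polymerases, and Prkab2 (0.943), a subunit of the AMP-activated kinase. For Baz2b they were Fth1 (0.964), the ferritin heavy chain, and Sypl (0.951). For Baz2a they were Ube2v2 (0.964), a relative of ubiquitin-conjugating enzymes, and Lrrc20 (0.959). The points are 10 types from the same 3 libraries, which share pool and depth.

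After CI-994 in conditioned mice the genes responded differently. Atad2b fell in all 10 types. Baz2a had a change above 0 in all 9 types tested and was called higher in 4, all of them neuronal. Brd7 fell in DG granule-like, CA1-like, CA3-like, oligodendrocyte-like and astrocyte-like nuclei but rose in microglia-like nuclei. For this comparison each type was fitted alone with edgeR's quasi-likelihood test over the 4 CFC libraries, with trimmed-mean (TMM) scaling, so a log2 change is relative to the bulk of genes in that type, and CPM are scaled within the type. Of the 90 pairs, 82 had enough counts to be tested, 7 were called higher and 24 lower, 10 of the latter being Atad2b, and 51 were not called. The drug changed a large share of all genes. In DG granule-like nuclei 47.7% of genes were called (21.9% higher and 25.8% lower), and 1 of the 9 members was called higher and 4 lower. The median log2 change there was -0.26 over the members and -0.004 over all genes tested.

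In the other neurons 5 of 9 were called in CA1-like nuclei (38.9% of all genes), 5 of 9 in CA3-like nuclei (30.9%), 1 of 9 in subicular or cortical excitatory-like nuclei (5.05%), 2 of 9 in interneuron-like nuclei (26.3%) and 1 of 3 tested in Cajal-Retzius-like nuclei (27.6%). In glia 6 of 9 were called in oligodendrocyte-like nuclei (36.9%), 1 of 8 in OPC-like nuclei (31.3%), 2 of 8 in astrocyte-like nuclei (27.1%) and 3 of 9 in microglia-like nuclei (36.9%). These shares rest on 9 genes or fewer and are given as counts only. The untested pairs were Brd2 in OPC-like and astrocyte-like nuclei and Brd1, Brd2, Brd3, Brd7, Brd9 and Baz2a in Cajal-Retzius-like nuclei.

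Scaling matters for direction here. Dividing by library totals moved the median log2 change of all genes by -0.206 to -0.349 from TMM over the 10 types, and dividing by the number of nuclei by -0.228 to -0.555. In DG granule-like nuclei the split of all genes was 3354 higher and 3964 lower by TMM, 1514 and 6649 by library totals, and 680 and 6668 per nucleus. For the members the split was 7 pairs higher and 24 lower by TMM, 5 and 48 by library totals, and 2 and 40 per nucleus. Falls were therefore called under each scaling, although Atad2b in subicular or cortical excitatory-like nuclei lost its call per nucleus. The rises that are lost or turn are named with their gene. The losses given with each gene are mainly those without 1 library. DESeq2 also gave no call for Brd1, Brd3, Brd7 and Bptf in oligodendrocyte-like nuclei and for Brd2 and Brd7 in CA3-like nuclei. Nor did it for Brd3 in DG granule-like, Atad2b in OPC-like and Cajal-Retzius-like, Brd7 in astrocyte-like and Brd1 in microglia-like nuclei. In counts from pooled nuclei, fewer nuclei of a kind within a gate and less RNA per nucleus cannot be told apart.

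**Figure D2:**
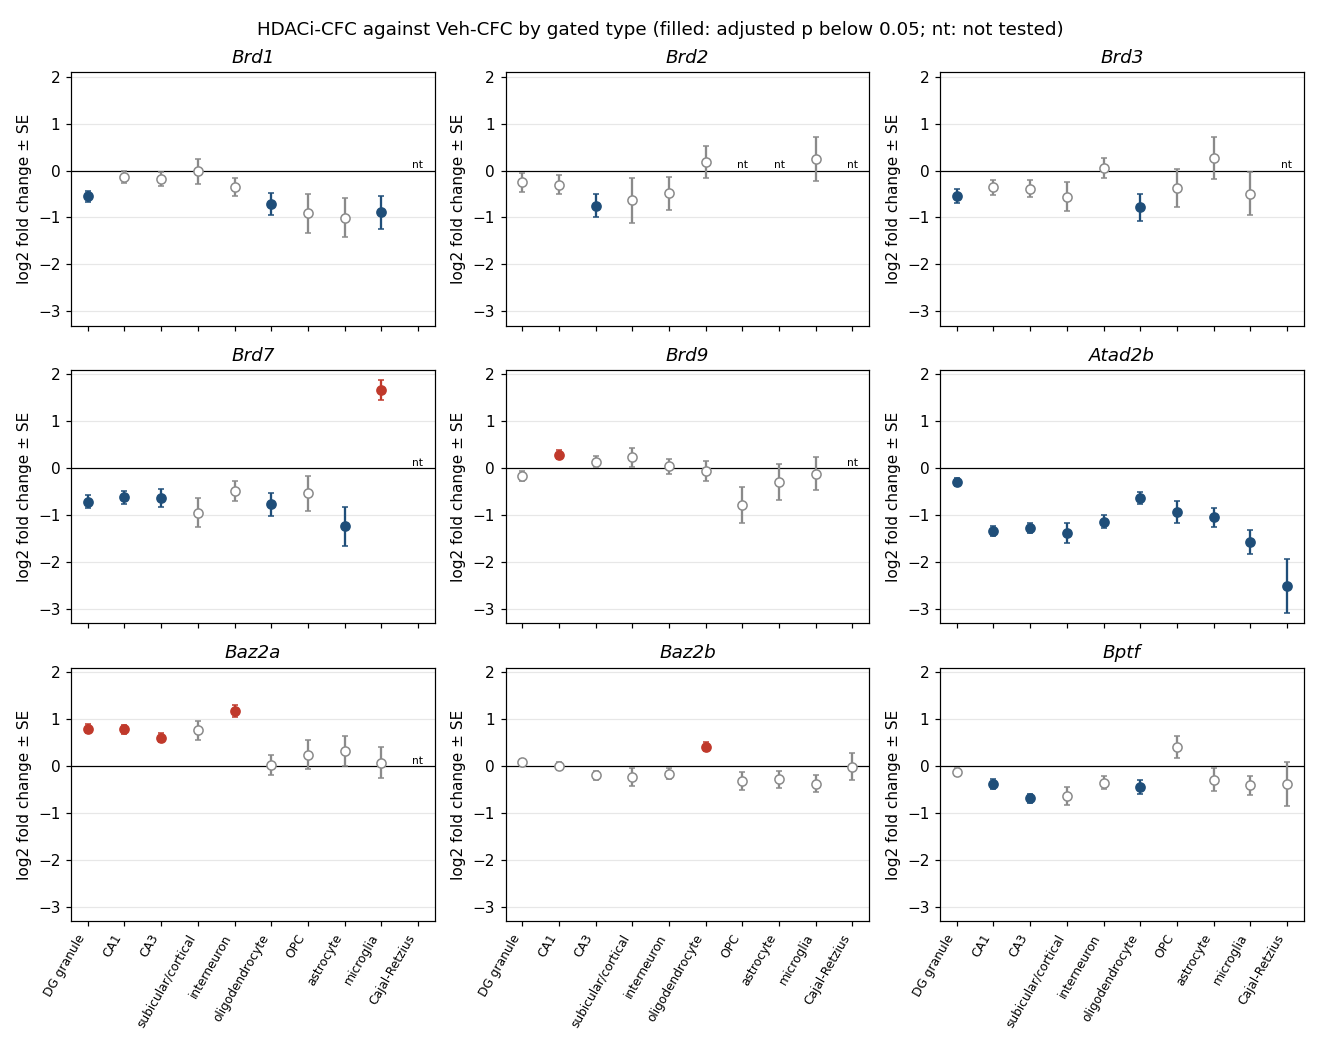
Log2 fold change of HDACi-CFC against Veh-CFC (point, with the standard error as bar) for each gene in the 10 gated types, TMM scale, filled where the adjusted p was below 0.05 and marked nt where not tested. Atad2b lies below 0 in all 10 types. Baz2a lies above 0 in all 9 types tested and is called in 4, all neuronal. Brd7 is above 0 only in microglia-like nuclei, at 1.67.

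Atad2b fell in every type, from a log2 change of -0.29 in DG granule-like to -2.50 in Cajal-Retzius-like nuclei. In all 10 types both drug libraries lay below both vehicle libraries, but the types share the same 4 libraries. The share of all genes lying apart in this way was not computed. The upstream window of Atad2b is shown because this member had the broadest response and the window holds a full cyclic-AMP response element. The stretch below is the 250 bases before the RefSeq start on GRCm38.p6, chr12:4917103-4917352, plus strand, with that element in capitals.
Atad2b upstream window: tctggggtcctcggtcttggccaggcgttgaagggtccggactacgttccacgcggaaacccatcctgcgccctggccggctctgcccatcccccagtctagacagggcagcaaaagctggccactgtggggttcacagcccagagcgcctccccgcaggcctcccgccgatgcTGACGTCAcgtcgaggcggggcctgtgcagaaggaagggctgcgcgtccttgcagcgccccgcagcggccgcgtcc
The letters TGACGTCA, which read the same on both strands, occur in 1.5% of 32851 RefSeq promoter windows searched (250 bases before each start). The window holds 23 CpG dinucleotides, where the median window holds 6. Windows of Brd1 (27), Brd3 (37), Brd9 (33) and Bptf (34) hold more. Those of Brd7 (22), Baz2a (20) and Baz2b (4) hold fewer, and those of Brd2 hold 12, 18 and 27. A window of Baz2b, called lower in no type by TMM, holds the same letters. A match of letters says nothing of whether a factor binds there.

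In CA1-like nuclei Atad2b was at 131.1 and 132.5 CPM in the Veh-CFC libraries and at 48 and 55.3 CPM in the HDACi-CFC libraries. This was a 2.53-fold fall (log2 -1.34 ± 0.10, adjusted p = 2.22e-11). In CA3-like nuclei it went from 150.4 and 139.4 to 58.4 and 61.8 CPM (log2 -1.26 ± 0.11), and in interneuron-like nuclei from 158.1 and 168.2 to 83 and 67.6 CPM (log2 -1.13 ± 0.14). In these types the drug libraries lie far below the vehicle libraries. In subicular or cortical excitatory-like nuclei the values were 121.8 and 122.1, then 42.8 and 49.5 CPM (log2 -1.37 ± 0.21). Per nucleus this call was lost in the edgeR fit (log2 -1.60, adjusted p = 0.0779). DG granule-like nuclei moved least, from 208.2 and 207.7 to 162.6 and 176.8 CPM, a 1.22-fold fall (log2 -0.29 ± 0.08, adjusted p = 0.00419), and here 920 to 2378 UMIs stood behind each value.

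Among glia, microglia-like nuclei fell furthest for Atad2b, from 201.2 and 267.3 to 84.8 and 76.8 CPM, on 64 and 126 against 20 and 26 UMIs (log2 -1.57 ± 0.26, adjusted p = 2.72e-08). Astrocyte-like nuclei went from 282.6 and 346.5 to 137.7 and 166.6 CPM (log2 -1.04 ± 0.20). Oligodendrocyte-like nuclei went from 253.3 and 246.3 to 148.6 and 171 CPM (log2 -0.63 ± 0.13). In none of these did the groups overlap. OPC-like nuclei had a log2 change of -0.94 ± 0.23 (adjusted p = 0.000755), which became -0.68 without HDACi-CFC 1 (adjusted p = 0.0674). The value in Cajal-Retzius-like nuclei rests on 21 and 19 against 4 and 1 UMIs, and was lost without Veh-CFC 1 (log2 -2.32, adjusted p = 0.085). The calls in CA1-like, CA3-like, DG granule-like, interneuron-like, astrocyte-like, microglia-like and oligodendrocyte-like nuclei held in every alternative run.

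The size of the Atad2b fall differed between types when the difference itself was tested against DG granule-like nuclei, in a joint fit with the library as a block. The change in DG granule-like nuclei was less negative by 1.07 ± 0.09 than in CA1-like nuclei (adjusted p = 2.65e-13), by 1.01 ± 0.10 than in CA3-like nuclei, by 1.18 ± 0.24 than in subicular or cortical excitatory-like nuclei and by 0.96 ± 0.15 than in interneuron-like nuclei. The differences were 0.86 ± 0.22 for astrocyte-like, 1.37 ± 0.26 for microglia-like and 2.41 ± 0.59 for Cajal-Retzius-like nuclei. Those with CA1-like, CA3-like and interneuron-like nuclei held when any 1 library was left out. The others were lost without some library: subicular or cortical excitatory without Veh-CFC 1, Veh-CFC 2 or HDACi-CFC 2, astrocyte without Veh-CFC 2, HDACi-CFC 1 or HDACi-CFC 2, microglia without HDACi-CFC 2 (1.03, adjusted p = 0.063), and Cajal-Retzius without Veh-CFC 1 or HDACi-CFC 2 (1.55). Differences with oligodendrocyte-like and OPC-like nuclei were not called.

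Brd7, the PBAF subunit, fell in 5 types and rose in 1. The upstream window is shown because its response had opposite signs in different types. It is the 228 bases before the RefSeq start that lie outside annotated exons, GRCm38.p6, chr8:88362195-88362422, minus strand, with GC boxes (GGGCGG, here read on the other strand as CCGCCC) in capitals.
Brd7 upstream window: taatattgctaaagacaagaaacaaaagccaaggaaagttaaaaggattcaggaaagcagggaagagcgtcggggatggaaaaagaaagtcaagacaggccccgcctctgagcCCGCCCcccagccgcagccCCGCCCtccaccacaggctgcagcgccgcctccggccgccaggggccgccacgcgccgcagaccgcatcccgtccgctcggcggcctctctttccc
A GC box on either strand occurs in 32.7% of the 32851 windows. The letters GAGGAAGT, a PU.1-type ETS site that microglial enhancers often carry, occur in 2.4% of windows and not in this one, which says only that these letters are absent here.

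In microglia-like nuclei Brd7 was at 94.3 and 108.2 CPM in the Veh-CFC libraries and at 360.2 and 298.4 CPM in the HDACi-CFC libraries, on 30 and 51 against 85 and 101 UMIs. The drug libraries lie far above the vehicle libraries, a 3.18-fold rise (log2 1.67 ± 0.22, adjusted p = 4.4e-12). UMIs per nucleus went from 0.176 and 0.239 to 0.483 and 0.495, so the rise also stood without any scaling to other genes. In DG granule-like nuclei of the same libraries Brd7 went the other way, from 39.3 and 32.8 to 23.3 and 20.7 CPM (log2 -0.71 ± 0.14, adjusted p = 0.000346). The difference of the changes, DG granule-like minus microglia-like, was -2.28 ± 0.26 (adjusted p = 3.24e-15), and it held without any 1 library, from -2.61 to -2.11. Markers of the other 12 types together made 2302.6 and 2678.4 CPM of the microglia-like counts with vehicle and 2605.3 and 2766.4 CPM with the drug, beside 14586.9 and 14759.6 against 16235.6 and 14706.9 CPM for microglial markers. With the gate held to 1 cluster the rise was as large (log2 1.65). That cluster already held 98.2% of the microglia-like nuclei, so this run could change little and decides nothing on mixed nuclei.

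Brd7 also fell in CA1-like nuclei, from 37.3 and 39.4 to 27.5 and 23.2 CPM (log2 -0.62 ± 0.14), and this and the DG granule call held in every alternative. In CA3-like nuclei it went from 37.6 and 27.8 to 22.2 and 20 CPM (log2 -0.63 ± 0.19), which was lost without Veh-CFC 1 (-0.41, adjusted p = 0.183) and without HDACi-CFC 2 (-0.55, adjusted p = 0.0653). In oligodendrocyte-like nuclei it went from 48.6 and 45.5 to 29.1 and 26.5 CPM (log2 -0.77 ± 0.24), lost without Veh-CFC 1 (-0.72), Veh-CFC 2 (-0.82) or HDACi-CFC 2 (-0.68). In astrocyte-like nuclei the change of -1.23 ± 0.42 rests on 16 and 21 against 12 and 8 UMIs. It was lost without Veh-CFC 1, Veh-CFC 2 or HDACi-CFC 2 (-0.71, adjusted p = 0.339) and with the replicate number as a block (-1.23, adjusted p = 0.0722). Interneuron-like (log2 -0.48) and subicular or cortical excitatory-like nuclei (log2 -0.94) were not called.

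**Figure D3:**
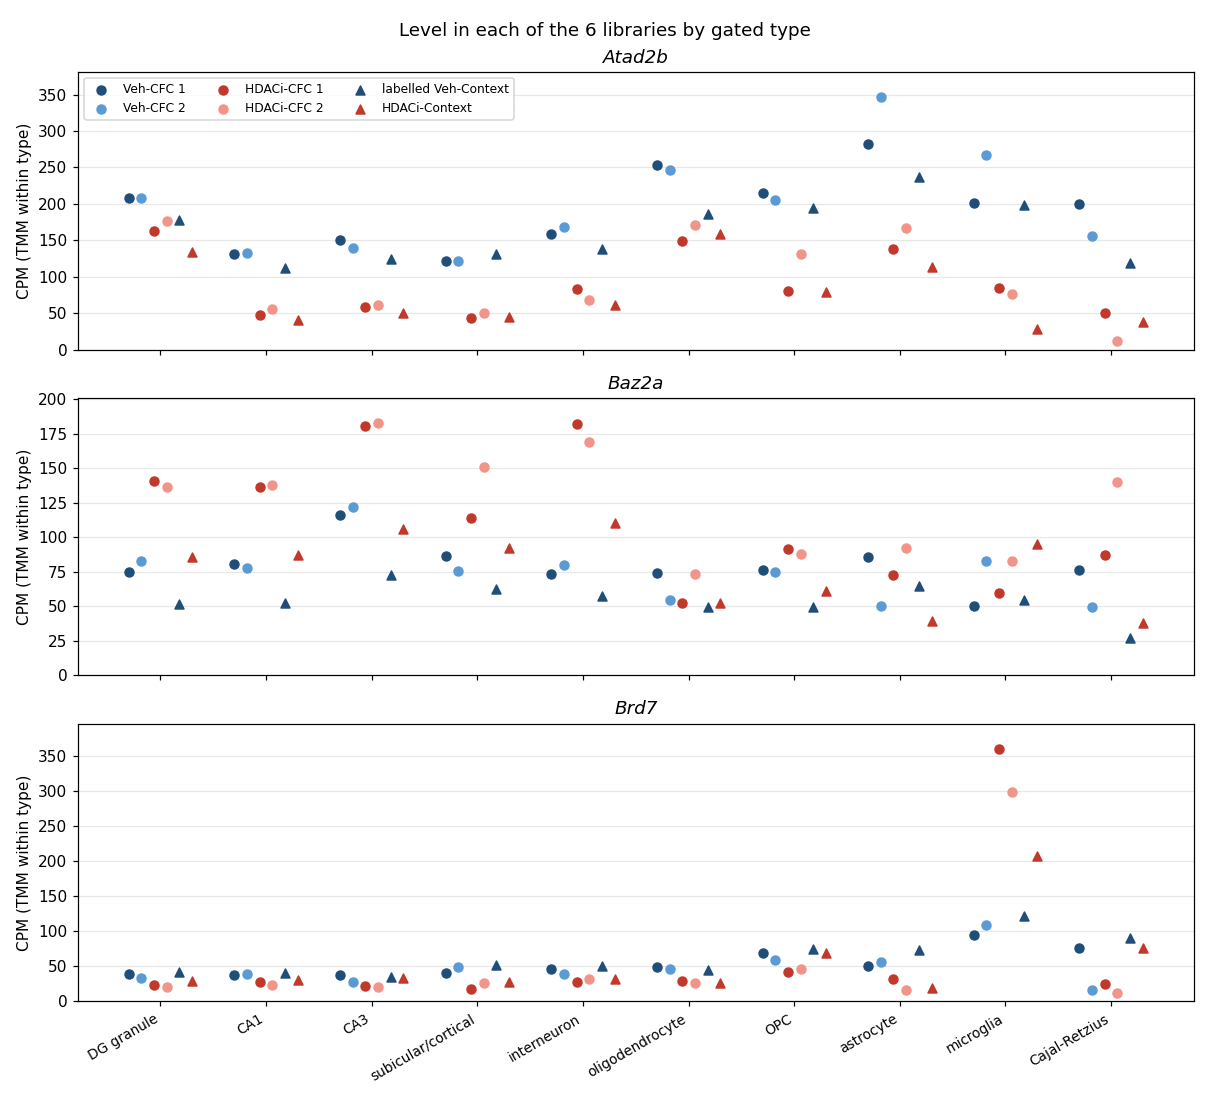
Level of Atad2b, Baz2a and Brd7 (CPM scaled within each type, linear axes) in the 10 gated types, with circles for the 4 CFC libraries, triangles for the 2 Context libraries, blue for vehicle and red for HDACi. In microglia-like nuclei the HDACi-CFC points of Brd7 lie at 360.2 and 298.4 CPM, above the Veh-CFC points at 94.3 and 108.2 CPM.

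Brd9, the other SWI/SNF subunit, changed little with the drug. It was called only in CA1-like nuclei, where it is most abundant, from 269.1 and 221.6 to 318.1 and 282.4 CPM (log2 0.29 ± 0.09, adjusted p = 0.0116). The groups lie apart by a small margin, and the call does not stand well: it turned to -0.04 by library totals and -0.12 per nucleus, and it was lost without Veh-CFC 2 (0.16) or HDACi-CFC 1 (0.21). The change in DG granule-like nuclei was lower than in CA1-like nuclei by 0.44 ± 0.10 (adjusted p = 0.000446), lost without HDACi-CFC 1 (-0.26, adjusted p = 0.0959).

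Baz2a rose with the drug in DG granule-like nuclei from 74.9 and 83.1 to 140.5 and 136.3 CPM, in CA1-like nuclei from 80.6 and 78 to 136.1 and 137.7 CPM, and in CA3-like nuclei from 116.2 and 121.6 to 180.9 and 182.8 CPM. In each type the libraries of a group sit close together and the groups lie apart. The log2 changes were 0.80 ± 0.09 (adjusted p = 4.85e-07), 0.79 ± 0.10 (adjusted p = 1.14e-07) and 0.61 ± 0.10 (adjusted p = 6.17e-05). The rise was largest in interneuron-like nuclei, from 73.5 and 80.2 to 181.7 and 168.8 CPM, 2.27-fold (log2 1.18 ± 0.13, adjusted p = 5.45e-06), and only this one held in every alternative. Per nucleus the other 3 were 0.34, 0.37 and 0.22 and not called (adjusted p = 0.093, 0.169 and 0.456). In subicular or cortical excitatory-like nuclei the change of 0.77 ± 0.20 missed the threshold (adjusted p = 0.0537).

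In glia Baz2a had log2 changes of 0.03 ± 0.21 in oligodendrocyte-like, 0.08 ± 0.33 in microglia-like, 0.24 ± 0.31 in OPC-like and 0.32 ± 0.32 in astrocyte-like nuclei, none of them called. Oligodendrocyte-like nuclei had 74.2 and 54.9 CPM with vehicle, and 52.4 and 73.5 CPM with the drug overlap them. Against DG granule-like nuclei the difference of the changes was called for oligodendrocyte-like nuclei (0.59 ± 0.20, adjusted p = 0.0254), and lost without Veh-CFC 1 (0.34, adjusted p = 0.514). For microglia-like nuclei it was 0.81 ± 0.33 (adjusted p = 0.109).

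Baz2b, the relative of Baz2a, did not share its rise. In DG granule-like nuclei it went from 258.3 and 255.2 to 280.4 and 266.6 CPM (log2 0.09, not called), and in CA1-like nuclei at 200.4 and 204.4, then 202.8 and 202.2 CPM. By library totals both were called lower, at -0.24 (adjusted p = 0.00613) and -0.33 (adjusted p = 0.00122). By TMM it was called only in oligodendrocyte-like nuclei, the type where it is most abundant, from 745.5 and 750.8 to 949.6 and 1046 CPM (log2 0.42 ± 0.09, adjusted p = 0.00115). That call was lost by library totals (0.10) and turned per nucleus (-0.06). The change in DG granule-like nuclei was lower than in oligodendrocyte-like nuclei by 0.50 ± 0.12, lost without HDACi-CFC 1 (-0.36) or HDACi-CFC 2 (-0.09), and higher than in CA3-like nuclei by 0.31 ± 0.09 and in microglia-like nuclei by 0.55 ± 0.19. The CA3 difference was lost without Veh-CFC 1 or HDACi-CFC 1 (0.25 each), and the microglial one without any 1 of the 4 libraries (0.30 to 0.65).

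Bptf, the NURF subunit, fell in CA3-like nuclei from 132.3 and 135 to 84.5 and 81.9 CPM, 1.61-fold (log2 -0.69 ± 0.10, adjusted p = 4.47e-05). The groups lie well apart, and the call held in every alternative. It fell in CA1-like nuclei from 144.4 and 129.9 to 112.9 and 99 CPM (log2 -0.38 ± 0.10), lost without Veh-CFC 1 (-0.30, adjusted p = 0.0706). In oligodendrocyte-like nuclei it went from 186.8 and 169.2 to 139.8 and 124.8 CPM (log2 -0.44 ± 0.14), lost without Veh-CFC 1 (-0.37), Veh-CFC 2 (-0.51) or HDACi-CFC 2 (-0.34). DG granule-like nuclei, at 141.5 and 135 against 134.9 and 118.6 CPM, were not called (log2 -0.13 ± 0.09). Their change was less negative than that of CA3-like nuclei by 0.59 ± 0.10 (adjusted p = 1.36e-06), which held without any 1 library, and than that of CA1-like nuclei by 0.26 ± 0.09 (adjusted p = 0.0363), lost without any 1 of Veh-CFC 1, Veh-CFC 2 or HDACi-CFC 2.

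Brd1 fell in DG granule-like nuclei from 41.7 and 39.9 to 28.8 and 27 CPM (log2 -0.55 ± 0.12, adjusted p = 0.000918), a call that held in every alternative. In oligodendrocyte-like nuclei it went from 52 and 52.4 to 36.4 and 29.1 CPM (log2 -0.71 ± 0.23), lost without Veh-CFC 1, Veh-CFC 2 or HDACi-CFC 2 (-0.71, -0.70 and -0.52). In microglia-like nuclei it went from 81.8 and 91.2 to 46.6 and 47.3 CPM on 11 to 43 UMIs (log2 -0.89 ± 0.35, adjusted p = 0.035), and this was lost when any 1 library was left out (adjusted p = 0.0794 to 0.225). The groups lay apart in 7 of the 9 types tested, each time with the drug lower. The types share the same 4 libraries, and the share of all genes lying apart was not computed. This count is therefore a description only.

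Brd2 and Brd3, the BET proteins, had the lowest counts. Brd3 fell in DG granule-like nuclei from 31.8 and 25.5 to 21.8 and 17.6 CPM (log2 -0.54 ± 0.16, adjusted p = 0.00733), lost without Veh-CFC 1 (-0.39) or HDACi-CFC 2 (-0.38). DESeq2 gave no call there (-0.52, adjusted p = 0.0593). In oligodendrocyte-like nuclei it went from 33.3 and 37.3 to 24.8 and 17.9 CPM (log2 -0.78 ± 0.29), lost without Veh-CFC 1 (-0.85), Veh-CFC 2 (-0.68) or HDACi-CFC 2 (-0.52). That call was also lost by DESeq2, with a stricter gate and with no low-count filter. Brd2 was called only in CA3-like nuclei, from 15.3 and 13.8 to 9.73 and 7.82 CPM on 32 to 63 UMIs (log2 -0.75 ± 0.24, adjusted p = 0.0229). That call was lost without Veh-CFC 1 (-0.67), without HDACi-CFC 2 (-0.57) and with the gate held to 1 cluster (-0.52, adjusted p = 0.197). It was lost by DESeq2 too (-0.70, adjusted p = 0.207). H2-DMa overlaps Brd2 on the other strand, with 15 to 32 UMIs a CFC library in CA3-like nuclei.

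Over the pairs of DG granule-like with each other type, 15 of 81 differences in the drug change were called, and 26 had an unadjusted p below 0.05. The members called and the share of all genes called were 3 of 9 and 15.1% against CA1-like, 3 of 9 and 16.8% against CA3-like, 1 of 9 and 2.68% against subicular or cortical excitatory-like, and 1 of 9 and 12.2% against interneuron-like nuclei. Against glia they were 2 of 9 and 16.6% for oligodendrocyte-like, 1 of 9 and 5.34% for astrocyte-like and 3 of 9 and 9.42% for microglia-like nuclei. For OPC-like nuclei edgeR called 0 of 9 (6.51% of all genes), with 2 at an unadjusted p below 0.05, and for Cajal-Retzius-like nuclei 1 of 9 (1.08%). Atad2b made 7 of the 15. The alternatives run for these differences were library-total scaling, Leiden clusters and leaving out each library. Those that held under all of them were the differences of Atad2b with CA1-like, CA3-like and interneuron-like nuclei, of Bptf with CA3-like nuclei and of Brd7 with microglia-like nuclei.

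The complexes the members work in were followed in DG granule-like nuclei through lists, called partner lists, that also hold genes of related complexes. The lists were chosen with earlier results known, and their counts are read against the 21.9% of all genes called higher and 25.8% called lower there, with no test of a list. Of 25 other bromodomain genes 4 were called higher and 15 lower, with a median log2 change of -0.40, beside -0.004 over all genes. Zmynd8, a reader of modified histones that joins corepressor complexes, rose from 135.7 and 150.1 to 296.5 and 257.8 CPM (log2 0.95 ± 0.08) and was called under each scaling. Trim24 (log2 -1.48), the acetyltransferase Ep300 (log2 -0.90) and Brpf3 (log2 -1.91) fell. By library totals the split was 1 higher and 18 lower. The other named risers of this list, Baz1b (0.45) and Zmynd11 (0.32), were not called under the other scalings and lay at -0.021 and -0.144 per nucleus. In other types the list had 2 higher and 14 lower of 25 in CA1-like nuclei (18.3% and 20.6% of all genes), 0 and 12 of 24 in CA3-like (14.9% and 16.1%), 1 and 12 of 23 in oligodendrocyte-like (18.2% and 18.7%) and 1 and 7 of 20 in microglia-like nuclei (18.9% and 18.1%), by edgeR on the TMM scale. Interneuron-like nuclei had 3 and 9 of 24 (14.8% and 11.5%), and subicular or cortical excitatory-like nuclei 0 and 1 of 22 (3% and 2.05%). The remaining counts were 2 and 6 of 20 in OPC-like (18.6% and 12.7%), 2 and 6 of 17 in astrocyte-like (17.8% and 9.35%) and 2 and 1 of 11 in Cajal-Retzius-like nuclei (23.3% and 4.25%).

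Subunits of the MOZ, MORF and HBO1 acetyltransferase complexes fell or were not called: 6 of 11 lower and 0 higher in DG granule-like nuclei, median log2 -0.54, and 10 of 11 lower by library totals. The list holds other scaffolds that can take the place of Brd1 (Brpf1, Brpf3, Jade1, Jade2 and Jade3), so these are not counts of its partners alone. The acetyltransferases Kat6a (0.02), Kat6b (0.004) and Kat7 (-0.27), outside the naming rule, were not called by TMM. They were called lower by library totals. Meaf6, a small subunit of these complexes, went from 51.8 and 51.9 to 22.8 and 22.6 CPM (log2 -1.19 ± 0.12). Jade3, a scaffold of HBO1, had a log2 change of -1.09, and Brpf3, the relative of Brd1, one of -1.91. Brd1 itself was at -0.55.

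Subunits of the BAF, PBAF and non-canonical BAF complexes went both ways, with 5 of 26 higher and 8 lower and a median of -0.09. The list also holds subunits of canonical BAF, a form to which neither Brd7 nor Brd9 belongs. Actl6a, the actin-like subunit of proliferating cells, fell from 43.8 and 40.7 to 16.1 and 14.8 CPM (log2 -1.46 ± 0.14), and the core subunits Smarcc1 (log2 -0.92) and Smarcb1 (log2 -0.66) fell too. Those called higher were Arid1b (0.51), a subunit of canonical BAF, Dpf1 (0.57) and Dpf3 (0.47), which belong to neuronal BAF, and, outside the naming rule and named after their values were seen, Smarcd2 (0.54) and Bicral (0.45), a relative of the non-canonical subunit Bicra. By library totals Arid1b alone was called higher and 16 of the list lower, and per nucleus 0 higher and 16 lower. Subunits of ISWI complexes, the family in which Baz2a, Baz2b and Bptf work, had 3 of 10 higher and 3 lower by TMM, but 0 higher and 7 lower under both other scalings. Several of them, among them Baz1b, Cecr2, Chrac1 and Pole3, belong to other ISWI complexes than those of the members. Smarca5, the ATPase that pairs with Baz2a, fell from 67.3 and 59.3 to 37.5 and 34 CPM (log2 -0.82 ± 0.11) while Baz2a rose. Cecr2 (log2 -0.33) and Pole3 (log2 -1.34, at 3.66 and 3.58 CPM in vehicle) fell as well. The rises of Baz1b, Rbbp7 (0.43) and Chrac1 (0.46) were called under neither other scaling and turned per nucleus, at -0.021, -0.028 and -0.008.

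The elongation factors that BET proteins act with had 4 of 17 higher and 5 lower, with a median of 0.03. By library totals this became 2 higher and 8 lower (median -0.30), and per nucleus 1 and 8 (median -0.43). Supt6, a histone chaperone that travels with RNA polymerase II, rose from 93.5 and 89.2 to 184.7 and 167.4 CPM (log2 0.95 ± 0.08), under each scaling. Aff4 (0.63), the scaffold of the super elongation complex, was called also by library totals, and Ccnt2 (0.39), a cyclin of P-TEFb, by TMM alone, with -0.079 per nucleus. Larp7 (log2 -1.62), which holds P-TEFb in its inactive 7SK particle, Nelfb (log2 -0.81) of the negative elongation factor and Supt16 (log2 -0.67) of the FACT chaperone fell.

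The Context libraries were set beside the conditioned ones with no test, since there is 1 per group. All 31 pairs called in CFC had a Context ratio of the same sign, and in 27 the 95% counting interval, which covers counting error only, left out 0. No pair had the opposite sign. The same count over all genes called in CFC was not made, so the agreement is not shown to be particular to the members. Under each of the other scalings 30 of the 31 kept the sign, the exception being Brd9 in CA1-like nuclei (-0.03 by library totals and -0.10 per nucleus). Atad2b in CA1-like nuclei was at 111.5 CPM in the library labelled Veh-Context and at 40.1 CPM in HDACi-Context, a log2 ratio of -1.48 (interval -1.68 to -1.28), close to the CFC change of -1.34. In DG granule-like nuclei it was at 177.9 and 133.2 CPM, a ratio of -0.42 (-0.51 to -0.33). So DG granule-like nuclei again moved less than CA1-like nuclei. In microglia-like nuclei it was at 198.5 and 28.1 CPM on 80 and 10 UMIs, a ratio of -2.82 (-3.94 to -1.87).

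Baz2a in the Context libraries had ratios of 0.73 (0.59 to 0.87) in DG granule-like nuclei, 0.73 (0.54 to 0.93) in CA1-like, 0.55 (0.36 to 0.74) in CA3-like and 0.94 (0.65 to 1.23) in interneuron-like nuclei, beside CFC changes of 0.80, 0.79, 0.61 and 1.18. Interneuron-like nuclei were again the highest of the 4. Brd7 in microglia-like nuclei was at 121.6 CPM in the library labelled Veh-Context and 207.6 CPM in HDACi-Context, a ratio of 0.77 (0.23 to 1.32) beside the CFC change of 1.67. Baz2b in oligodendrocyte-like nuclei had a ratio of 0.58 (0.45 to 0.71) and Bptf in CA3-like nuclei one of -0.57 (-0.75 to -0.39). In 4 called pairs the interval spanned 0, namely Brd2 (-0.39) and Brd7 (-0.06) in CA3-like nuclei, Atad2b in oligodendrocyte-like nuclei (-0.23) and Atad2b in Cajal-Retzius-like nuclei (-1.64). The direction in the Context pair follows the title of the library whose description disagrees with it.

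**Figure D4:**
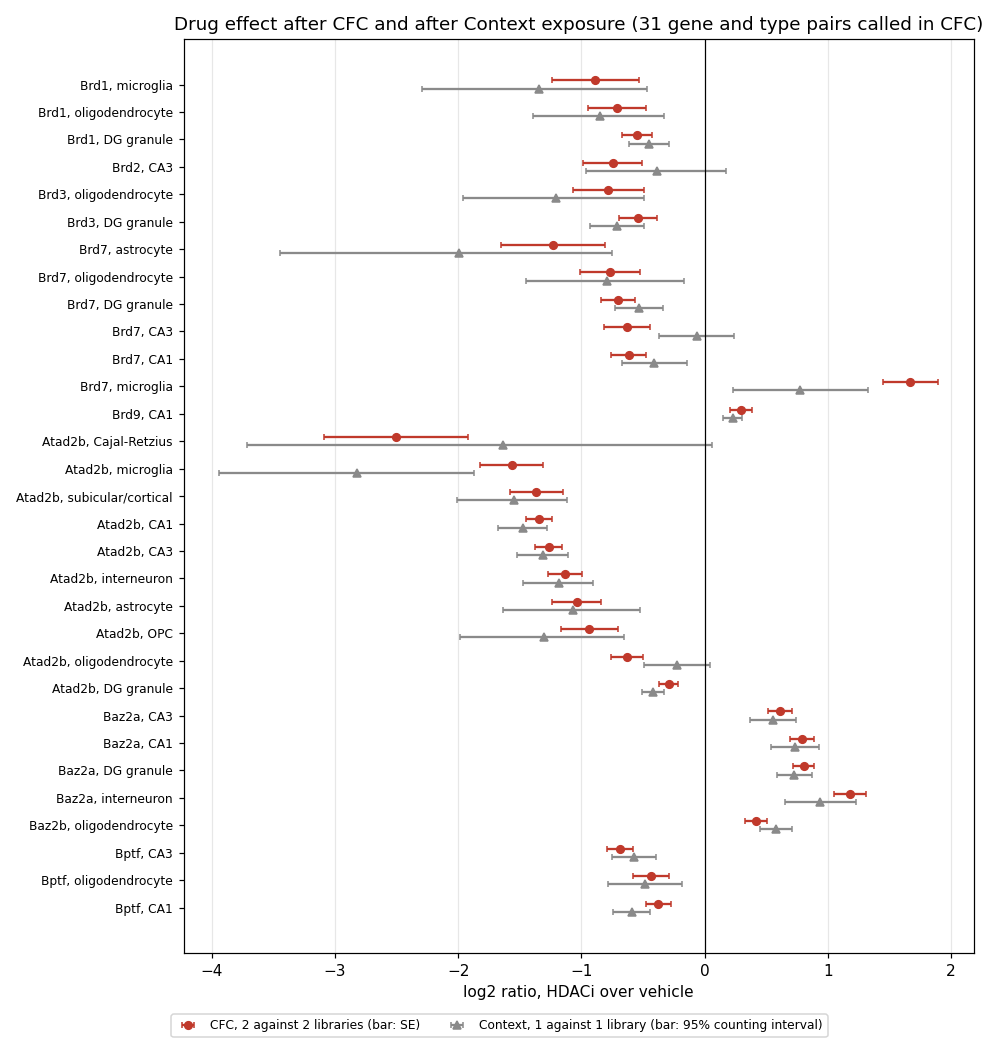
Log2 ratio of HDACi over vehicle (horizontal axis) for the 31 pairs of gene and type called in CFC, 1 row per pair, with the CFC change and its standard error in red and the Context ratio and its 95% counting interval in gray. In every row both points lie on the same side of 0, with Brd7 in microglia-like nuclei at 1.67 and 0.77.

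By edgeR's drug by exposure interaction over all 6 libraries, 0 of the 82 pairs tested were called as differing between CFC and Context. In that fit the single Context libraries are assumed to vary as the CFC libraries do. An unadjusted p below 0.05 was found for 4 pairs: Bptf in OPC-like, Brd3 in astrocyte-like, and Brd7 and Atad2b in microglia-like nuclei (CFC minus Context 0.90 ± 0.39 and 1.24 ± 0.56, adjusted p = 0.608 and 0.648). Few of all genes were called either: 0.49% in DG granule-like, 0.421% in CA1-like, 0.0716% in CA3-like, 0% in subicular or cortical excitatory-like, 0.00852% in interneuron-like and 0.328% in Cajal-Retzius-like nuclei. In glia the shares were 0.189% in oligodendrocyte-like, 0.0186% in OPC-like, 0.0824% in astrocyte-like and 0.224% in microglia-like nuclei. A missed threshold with 1 Context library a group does not show that the changes are equal.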

How the data were processed

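Per the labels, RNA of nuclei from pooled mouse hippocampi was sequenced with the 10x droplet method. The authors deposited raw UMI counts per gene and barcode, with no normalization. Per the file headers the matrices came from Cell Ranger 3.0.1 (CFC) and 3.0.2 (Context), and the submitters' processing notes name mm10 and Seurat 4.0.3. Whether intronic reads were counted, and by strand, is not given in the sources used here, and free RNA was not measured here.

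Nuclei under 500 genes or above 5% mitochondrial counts were left out, and doublets called by Scrublet (in scanpy 1.11.5; 1.98% to 4.54% a library) were removed. A nucleus was gated to a type when its scaled marker score was at least 0.3, at least 1.5 times the next list's, on at least 2 markers detected. The marker lists were written first. The score thresholds, and the rule that names clusters, were set after marker scores were seen, and the cluster rule was loosened so that the CA1-like cluster could be named. The members and lists were chosen with earlier results of these data known. Named were all 9 members, up to 3 genes per direction of each partner list with the smallest adjusted p in DG granule-like nuclei, and the 2 genes most like each of the 3 widest-ranging members.

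UMIs were summed per library and type and tested with edgeR 4.0.16 in R 4.3.3 (quasi-likelihood, TMM, filterByExpr), with adjusted p over all genes in the fit and calls below 0.05. Gene IDs matched GENCODE M21 (GRCm38) for 99.9% of 31053 features, and promoters came from RefSeq on GRCm38.p6. On simulated counts, the CFC fit found 71% of 1.5-fold and 89% of 2-fold changes in DG granule-like nuclei, and 14% and 76% in microglia-like nuclei. There only 100 well-counted genes per fold were changed, in both directions, with a common spread for all genes. The drug changed a far larger share of genes, so these figures may not hold for the data. Alternatives for the CFC comparison (fewer for the others, as given in the closing section) were 2 other scalings, DESeq2 1.42.0, no low-count filter, a stricter gate, Leiden clusters, kept doublets, a minimum of 1000 genes, a replicate block, all 6 libraries, leaving out each library, and, added after the data were seen, CA3-like and microglia-like nuclei of 1 cluster each.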

Additional observations from a re-analysis of the deposited data

Results flagged for a closer look

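In 15 tests the change with CI-994 in conditioned mice differed between DG granule-like nuclei and another type at an adjusted p below 0.05 (edgeR, type by drug interaction, log2 DG granule-like minus other). For Atad2b the differences were 1.07 with CA1-like, 1.01 with CA3-like, 1.18 with subicular or cortical excitatory-like, 0.96 with interneuron-like, 0.86 with astrocyte-like, 1.37 with microglia-like and 2.41 with Cajal-Retzius-like nuclei, so the fall was smaller in DG granule-like nuclei each time. For Brd7 the difference with microglia-like nuclei was -2.28, where the signs of the changes were opposite. For Bptf it was 0.26 with CA1-like and 0.59 with CA3-like nuclei. For Baz2b it was 0.31 with CA3-like, -0.50 with oligodendrocyte-like and 0.55 with microglia-like nuclei. For Baz2a it was 0.59 with oligodendrocyte-like nuclei, and for Brd9 -0.44 with CA1-like nuclei. Types of a library share its mice and depth.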

How the results depend on the processing

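Of the 31 CFC calls, 13 held in every alternative listed under processing and 18 when any 1 library was left out. Vehicle differences were run with library totals, DESeq2, no low-count filter, Leiden clusters, a stricter gate and without each library, and 22 of 34 calls held in all. Type and exposure differences were run with library totals, Leiden clusters and without each CFC library, and 5 of 15 type calls held in all. For CFC, 48 pairs were called lower by library totals, 40 per nucleus and 13 by DESeq2, against 24, and 14 to 24 without 1 library (fewest without Veh-CFC 1). Pairs called higher were 2 per nucleus and 6 to 7 without 1 library, against 7. All genes of DG granule-like nuclei called higher were 1514 by library totals and 680 per nucleus, and those called lower were 6649, 6668 and, by DESeq2, 2516. Vehicle pairs called lower were 27 by library totals against 15, and type differences were 9 to 11 without 1 library against 15 (9 without Veh-CFC 1 or HDACi-CFC 2). No exposure difference was called by edgeR in any of these.

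Signs turned in these cases. CFC changes by library totals were -0.24 for Baz2b in DG granule-like, -0.33 for Baz2b in CA1-like and -0.04 for Brd9 in CA1-like nuclei, and per nucleus -0.12 for Brd9 in CA1-like and -0.06 for Baz2b in oligodendrocyte-like nuclei. Context ratios of Brd9 in CA1-like nuclei were -0.03 and -0.10. Vehicle differences by library totals were -0.21, -0.14 and -0.05 for Brd1, Baz2b and Bptf in DG granule-like nuclei, -0.23 and -0.08 for Brd1 and Bptf in CA1-like nuclei, -0.21 and -0.19 for the same genes in CA3-like nuclei, and 0.34 and 0.41 for Atad2b and Baz2b in microglia-like nuclei. By DESeq2 Baz2b in DG granule-like nuclei was at -0.07. The cause was not tested beyond the scaling itself. Uncalled values also changed sign, in 56 of 690 CFC, 67 of 410 vehicle, 73 of 492 exposure and 54 of 386 type comparisons.

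Same-numbered replicates share only a number: their deviations correlated at -0.012 to 0.109 over types. With the number as a block 7 pairs were called higher and 24 lower, 30 of them called without it, and DG granule-like nuclei had 3556 and 4147 genes. Few UMIs limit Brd2 and Brd3, and Cajal-Retzius-like nuclei (92008 to 115167 UMIs a library, 3 of 9 members tested).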

Other observations

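The members also sat at different levels in the Context and CFC libraries of the same treatment, given here as values. All 10 types share the same 1 Context library per treatment. The same counts over all genes were not made, so these are not a trait shown for the members. The library labelled Veh-Context was above both Veh-CFC libraries in 9 of 10 types for Brd1, and in 8 of 10 for each of Brd3, Brd7 and Brd9. It was below both in 9 of 10 types for Atad2b and in 8 for Baz2a. HDACi-Context was below both HDACi-CFC libraries in 10 of 10 types for Bptf, in 9 for Baz2a and in 7 for Atad2b. It was above both in 7 types for each of Brd1 and Brd9 and in 6 for Brd7. Brd9 in CA1-like nuclei was at 402.7 CPM (scaled within the type) in the library labelled Veh-Context against 269.1 and 221.6 CPM in Veh-CFC. Of 4 genes that overlap members, a pair stood higher there: Gm41002, antisense to Brd9, had 65 and 92 UMIs in CA1-like nuclei of the Context libraries and 12 to 17 in the CFC libraries, and Gm13572, which overlaps Baz2b, had 57 and 41 against 3 to 11 UMIs in DG granule-like nuclei. The others did not: Gm13620, also over Baz2b, had 0 and 2 against 1 to 9 UMIs in DG granule-like nuclei, and H2-DMa, over Brd2, had 21 and 46 against 34 to 56 UMIs in CA1-like nuclei. Exposure and separate processing cannot be told apart.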
